A study of Mus musculus with 6 samples.

Results

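The insulin and IGF axis was described here by 10 genes, which were the receptors Igf1r and Insr, the adaptors Irs1 and Irs2, and the IGF binding proteins Igfbp2, Igfbp3, Igfbp4, Igfbp5, Igfbp6 and Igfbp7. They are the rows with these symbols among the 21240 genes of the deposited count table. RNA was measured in NMuMG cells, an epithelial line derived from normal mouse mammary gland, by stranded total RNA-seq. All cells had been grown in medium with 10% serum and 10 μg/ml insulin and were then kept 6 h without serum and insulin. The groups were vehicle for 2 h (HCl and BSA by the treatment protocol, Tris-HCl and BSA by the sample labels), TGFβ1 at 5 ng/ml for 2 h, and TGFβ1 at 5 ng/ml for 12 h, with 2 biological replicates each and 6 libraries in all. Because vehicle cells were collected only at 2 h, they had been 8 h without added insulin, as had the TGFβ 2 h cells, while the TGFβ 12 h cells had been 18 h without it. In every comparison that involves the 12 h libraries, the length of TGFβ treatment and the length of insulin and serum withdrawal cannot be told apart.

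Insulin and the insulin-like growth factors IGF1 and IGF2 bind related receptor tyrosine kinases, Insr and Igf1r, which phosphorylate the docking proteins Irs1 and Irs2. These recruit PI3K, and the signal passes through AKT to mTOR, GSK3 and the FoxO transcription factors. Secreted IGF binding proteins hold IGFs away from the receptor or deliver them to it, and proteases release the ligand by cutting the binding proteins. In the mammary gland this axis is known for supporting epithelial survival during pregnancy and lactation, and Igfbp5 is known for its rise during involution.

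Irs1 and Irs2 were both lower 2 h after TGFβ than with vehicle and both higher at 12 h than at 2 h, and the sequences before their starts are shown for that reason. No test linked these sequences to the levels of the genes, whose calls at 12 h differed (lower than vehicle for Irs1, none for Irs2). RefSeq promoter windows (table build GRCm38.p6) were found for 9 of the 10 members, all but Insr, and the 250 bases before each start were used. The Irs1 window matched mm9 once, exactly, at chr1:82288015-82288264 on the minus strand, and the Irs2 window matched once at chr8:11008930-11009179, also on the minus strand. Neither overlapped a GENCODE exon in mm9. The RefSeq start lies 23 bases before the start of the GENCODE gene for Irs1 and 471 before it for Irs2, so distances counted from the gene coordinates given with the levels are longer by as much. Capitals mark the 2 stretches of 10 bases that both windows hold, GTCACGTGTT and TGTTTTGCTC, which overlap each other in both genes.
Irs1: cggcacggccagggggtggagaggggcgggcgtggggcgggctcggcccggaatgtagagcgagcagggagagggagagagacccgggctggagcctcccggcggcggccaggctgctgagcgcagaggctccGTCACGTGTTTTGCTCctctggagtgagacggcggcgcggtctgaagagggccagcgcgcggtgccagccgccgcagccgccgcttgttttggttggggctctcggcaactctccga
Irs2: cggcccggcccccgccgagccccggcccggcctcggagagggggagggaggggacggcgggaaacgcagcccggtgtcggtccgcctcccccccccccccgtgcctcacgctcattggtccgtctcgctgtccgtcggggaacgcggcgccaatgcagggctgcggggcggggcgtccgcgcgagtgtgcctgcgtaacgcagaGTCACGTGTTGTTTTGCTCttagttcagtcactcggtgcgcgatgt
The first stretch was present on either strand in 0.0700% of the 32851 RefSeq windows of this length and the second in 0.0639%. The joined run was GTCACGTGTTTTGCTC in Irs1 and GTCACGTGTTGTTTTGCTC in Irs2. It contains the E-box CACGTG, which began 115 bases before the RefSeq start of Irs1 and 44 before that of Irs2 and was found in 6.02% of all windows. It also contains TGTTTTG, the core of a known class of insulin response sequences, which began 111 bases before the start of Irs1, with another match 32 bases before it, and 37 bases before the start of Irs2, and was found in 5.56% of all windows. In Irs1 the last bases of the E-box are the first of TGTTTTG. These letters were picked after the sequences had been seen, and a match describes the window only.

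The same windows were searched on both strands for TGTTTAC (a FoxO motif, in 3.17% of all windows), TGACTCA or its reverse complement TGAGTCA (AP-1, 4.46%), CAGACA (a SMAD box, 17.1%), the palindrome GTCTAGAC (0.167%) and the E-box CAGGTG (17.2%). Among the members, the AP-1 motif was found in 1 of the 2 Igfbp2 windows, the last of these E-boxes in the Igfbp3 window and the E-box shared by Irs1 and Irs2 also in the other Igfbp2 window. No member window held the FoxO motif, the SMAD box or the palindrome. TGTTTTG was found in those of Irs1 and Irs2 only.

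Total counts ranged from 14705886 to 23786993 per library, and TMM factors from 0.961 to 1.07. Levels are given as TMM-normalized CPM (reads scaled to library size), and log2FC and adjusted p-values come from the quasi-likelihood test of edgeR, adjusted by Benjamini-Hochberg over the 11080 genes that reached 2 CPM in 2 or more libraries. Libraries are named by group and replicate number (vehicle 1, TGFβ 12 h 2). A gene was called at an adjusted p under 0.05. The TGFβ target genes Smad7 (log2FC 2.07 at 2 h and 2.65 at 12 h) and Skil (2.09 and 2.21) rose at both times. Of 7 epithelial markers, 4 reached 1 CPM, and the summed level of the list was 4957 to 5776 CPM with vehicle, 6437 to 6472 at 2 h and 10316 to 10364 at 12 h. Within it, Krt8 and Krt18 rose at 12 h (log2FC 1.63 and 1.53), Krt19 fell (-1.95, adjusted p = 0.000103) and Cdh1 had -0.07 (adjusted p = 0.762). Epcam stayed at or below 0.697 CPM in every library, and neither Cldn3 nor Cldn7 had a count in the vehicle libraries. Markers of fibroblasts summed to 3.56 to 5.23 CPM with vehicle, 8.97 to 9.66 at 2 h and 13.4 to 15.6 at 12 h, with 3 of 6 reaching 1 CPM. Col1a1 went from 0.647 and 1.27 CPM to at least 10.8 CPM in both 12 h libraries, while Pdgfra had 2.76 and 2.16 CPM with vehicle and 2.79 and 2.46 CPM at 12 h, and Dcn was at or below 0.588 CPM throughout. Basal markers summed to 2.55 to 5.18 CPM with vehicle, 8.75 to 11.8 at 2 h and 5.70 to 9.03 at 12 h, most of it Krt14. Endothelial markers summed to 0.176 to 0.255 CPM with vehicle, 0.353 to 0.354 at 2 h and 1.74 to 1.95 at 12 h, where Cdh5 had 39 and 36 counts against 1 and 2 with vehicle. Immune markers summed to at most 6.87 CPM and adipocyte markers to 0.303, and the part of these lists in the values below was not tested. In bulk RNA, fewer cells of a type and less RNA per cell cannot be told apart.

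At 2 h, 1 member rose (Igf1r) and 3 fell (Irs1, Irs2 and Igfbp5), against 9.91% of all tested genes called higher and 5.25% called lower. At 12 h, 3 members rose (Igfbp3, Igfbp7 and Igf1r) and 3 fell (Igfbp5, Igfbp6 and Irs1), against 21.8% of all tested genes higher and 21.5% lower. Between 2 h and 12 h of TGFβ, 5 members were called higher (Igfbp3, Igfbp7, Irs1, Irs2 and Igf1r) and 2 lower (Igfbp5 and Igfbp6), against 15.2% and 18.9% of all genes. The members were chosen with earlier results of these data known, so the shares are set beside them as a description only. With the added demand of an absolute log2FC above 1, 3 members were called at 2 h and 5 at 12 h, against 6.25% and 19.6% of all genes. The count of 3 was 1 (Irs1) without vehicle 2, TGFβ 12 h 1 or TGFβ 12 h 2 and 2 without any 1 of the other 3 libraries. Of the 10 members, 9 passed the filter on low values and Igfbp2 did not. Igfbp5 passed it through its vehicle libraries alone, so its presence among the tested genes required a high vehicle level. Igfbp6 passed it through both vehicle libraries and TGFβ 2 h 2 alone. With at least 10 counts in every library, which removes these genes, the 12 h count of 5 was 3. With the replicate number as a block, 6 members were called at 2 h (3 higher and 3 lower, against 29.1% of all genes in that fit), while 6 were called at 12 h as before (55.3%). At 2 h only 2 members were called when either 12 h library or the 2nd vehicle library was left out, and between 2 h and 12 h 4 were called without either 12 h library.

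**Figure D1:**
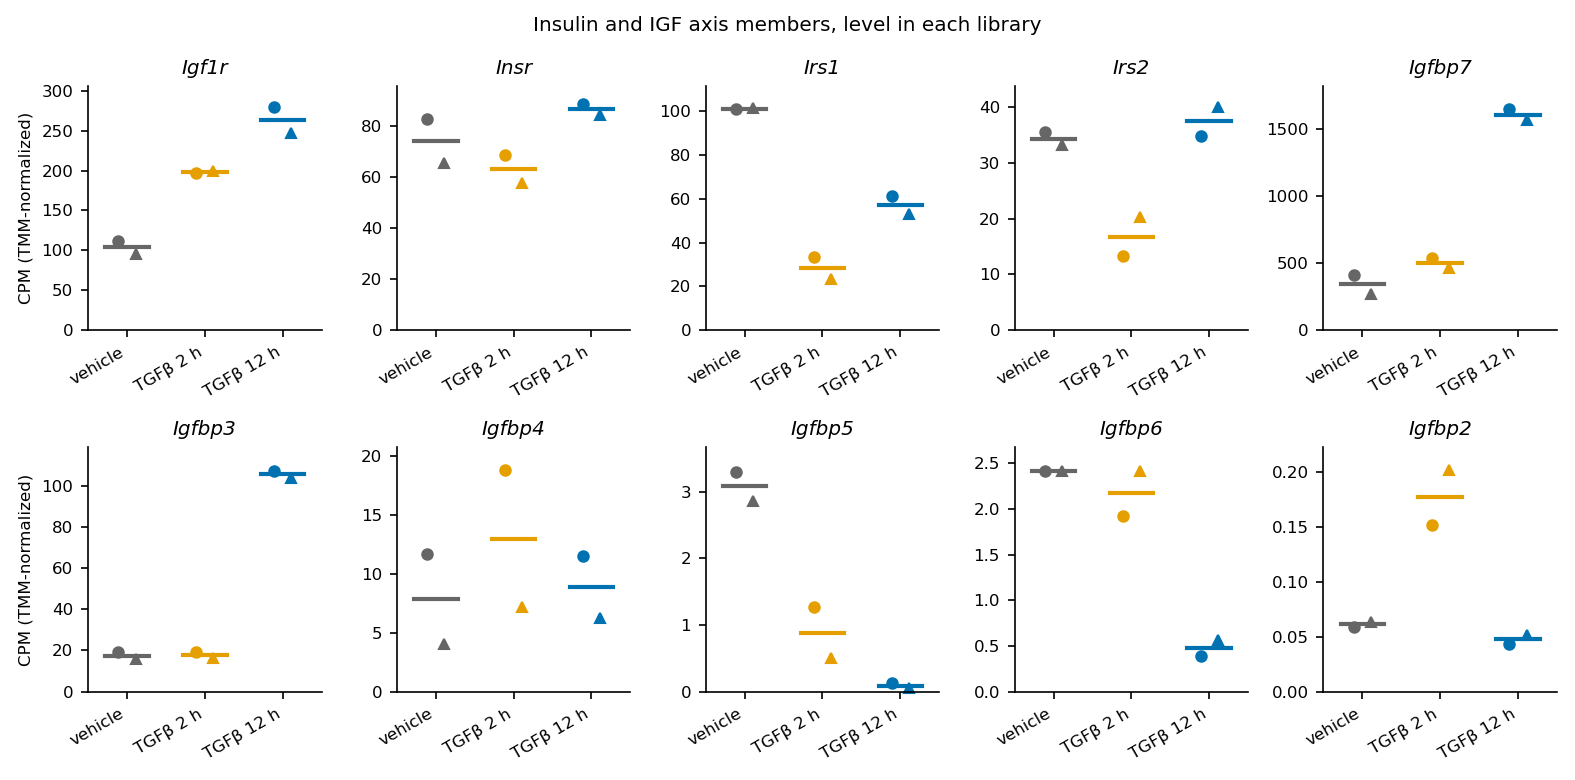
TMM-normalized CPM (y axis, linear from 0, a different scale for each gene) of the 10 members in the vehicle, TGFβ 2 h and TGFβ 12 h libraries. Circles are replicate 1, triangles replicate 2 and lines the mean of the 2. Irs1 and Irs2 dip at 2 h, Igf1r climbs at both times, and Igfbp3 rises from 16.0 to 19.0 CPM with vehicle to 104 to 107 CPM at 12 h.

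No ligand RNA was found at a level that could be tested. Ins1 and Ins2, the mouse insulin genes, had 0 counts in every library, as had the orphan receptor gene Insrr. Igf1 had 1 count in the 6 libraries together. Igf2 had 2 and 0 counts with vehicle, 4 and 0 at 2 h, and 2 and 1 at 12 h. The limit that a count of 0 allows (3 counts) lay between 0.131 and 0.191 CPM per library, and it covers counting error only. Igf2r, a receptor that takes IGF2 to the lysosome, had 435 and 382 CPM with vehicle, 414 and 370.4 at 2 h, and 263 and 267 at 12 h. It did not differ detectably at 2 h (log2FC -0.06, adjusted p = 0.768) and fell at 12 h (log2FC -0.62, SE 0.114, adjusted p = 0.00511).

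Igf1r, the receptor for IGF1 and IGF2 (mm9 chr7:75097713-75371484, plus strand, Entrez 16001), rose at both times. It had 112 and 95.5 CPM in the vehicle libraries, 198 and 200.1 at 2 h, and 280 and 247 at 12 h. The 3 groups did not overlap. The log2FC was 0.94 at 2 h (SE 0.120, adjusted p = 0.00394) and 1.35 at 12 h (SE 0.121, adjusted p = 0.000292), which is 1.92-fold and 2.54-fold. The further step between 2 h and 12 h was smaller, at 0.41 (SE 0.118, adjusted p = 0.0388), and it lost its call whichever single library was left out, with adjusted p of 0.0508 to 0.224. It lost it without any of vehicle 1 or 2, TGFβ 2 h 1 or 2, and TGFβ 12 h 1 or 2.

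Insr, the insulin receptor (chr8:3150922-3279617, minus strand, Entrez 16337), was called at neither time against vehicle. Its levels were 82.9 and 65.4 CPM with vehicle, 68.6 and 57.6 at 2 h, and 88.7 and 84.3 at 12 h. The 2 h libraries overlapped the vehicle libraries, and both 12 h libraries were above them. The log2FC was -0.23 at 2 h (95% interval -0.59 to 0.12, adjusted p = 0.347) and 0.22 at 12 h (-0.13 to 0.58, adjusted p = 0.270). Between 2 h and 12 h it was 0.46 (SE 0.148), with an adjusted p of 0.0549. That value fell to 0.00467 with the replicate block and ranged from 0.00467 to 0.239 over all 14 alternatives. It was 0.0482 without vehicle 1, 0.0461 without vehicle 2 and 0.0320 without TGFβ 2 h 1. With DESeq2 (0.0339), total counts (0.0483) and only the 2 TGFβ groups (0.0479) it was called too, 7 of the 14 in all.

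The count of Igf1r relative to Insr within each library does not depend on gene length when libraries are compared. Set to the geometric mean of the vehicle libraries, it was 0.960 and 1.04 with vehicle, 2.05 and 2.48 at 2 h, and 2.25 and 2.09 at 12 h. All 4 treated libraries thus lay above both vehicle libraries, and the 2 h and 12 h ranges overlapped. No test was run on these ratios.

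Irs1 and Irs2 carry the signal of both receptors to PI3K. Irs1 (chr1:82229676-82287991, minus strand, Entrez 16367) had 101 CPM in each of the 2 vehicle libraries, 33.5 and 23.1 at 2 h, and 61.2 and 53.1 at 12 h. The groups did not overlap, and the 12 h libraries lay between the others. The log2FC was -1.84 at 2 h (SE 0.185, adjusted p = 0.00173), a level 3.57-fold lower. At 12 h it was -0.82 (SE 0.179, adjusted p = 0.0103), 1.77-fold lower, and without TGFβ 12 h 2 its adjusted p was 0.0909. From 2 h to 12 h Irs1 rose by a log2FC of 1.01 (SE 0.182, adjusted p = 0.00695), with an adjusted p of 0.0688 without TGFβ 12 h 1.

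Irs2 (chr8:10986980-11008458, minus strand, Entrez 384783) had 35.5 and 33.2 CPM with vehicle, 13.2 and 20.2 at 2 h, and 34.9 and 40.0 at 12 h. Its 2 h libraries were the lowest, and the 12 h libraries overlapped those of vehicle. The log2FC was -1.04 at 2 h (SE 0.209, adjusted p = 0.0211) and 0.12 at 12 h (SE 0.203, adjusted p = 0.657). The 2 h call was lost without vehicle 1 (adjusted p = 0.102), vehicle 2 (0.0724), TGFβ 12 h 1 (0.0594) or TGFβ 12 h 2 (0.0595), and in a fit of only these 2 groups (0.0621), where the log2FC was -0.99 to -1.09 in those 5 fits. From 2 h to 12 h Irs2 rose by 1.16 (SE 0.208, adjusted p = 0.00684), with an adjusted p of 0.0586 without TGFβ 12 h 2.

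Irs1 relative to Irs2, again set to the vehicle geometric mean, was 0.964 and 1.04 with vehicle, 0.859 and 0.388 at 2 h, and 0.596 and 0.450 at 12 h. The 2 h replicates differed from each other by more than the 12 h replicates did. At both times Irs1 was higher and Irs2 lower in replicate 1 than in replicate 2. Every treated library lay below both vehicle libraries.

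**Figure D2:**
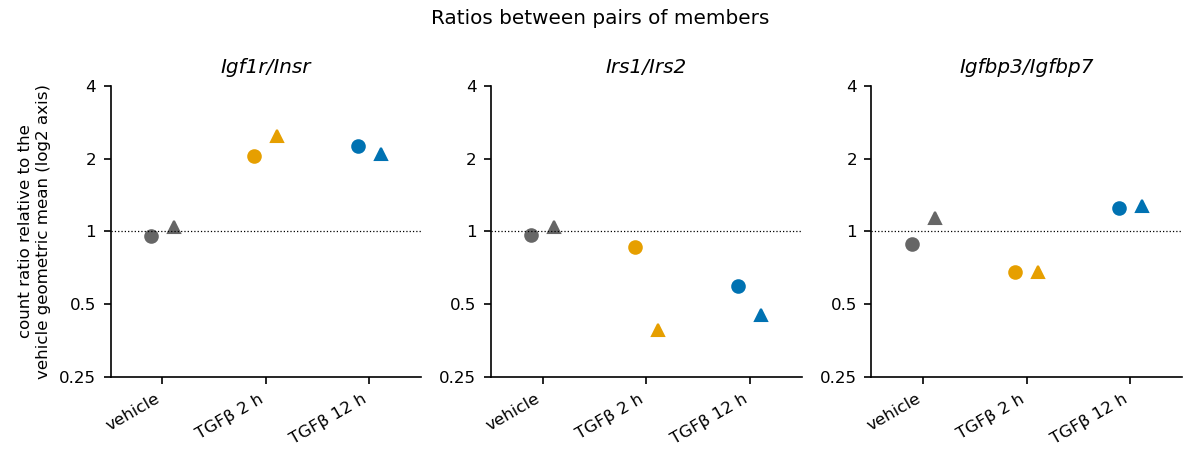
Count ratio of 3 pairs of members in each library, relative to the geometric mean of the 2 vehicle libraries (y axis, log2 scale). Circles are replicate 1 and triangles replicate 2. Igf1r/Insr is 2.05 to 2.48 in the 4 TGFβ libraries, Irs1/Irs2 is 0.388 to 0.859, and Igfbp3/Igfbp7 dips to 0.678 to 0.681 at 2 h and is 1.25 to 1.28 at 12 h.

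Igfbp3 and Igfbp7 rose between 2 h and 12 h, Igfbp5 and Igfbp6 fell, and Igfbp4 varied more between replicates than between groups. Igfbp3, the main carrier of IGFs in blood (chr11:7106089-7113926, minus strand, Entrez 16009), had 19.0 and 16.0 CPM with vehicle, 19.1 and 16.2 at 2 h, and 107 and 104 at 12 h. The vehicle and 2 h libraries overlapped almost entirely, and the 12 h libraries stood far above both. The log2FC was 0.01 at 2 h (95% interval -0.32 to 0.35, adjusted p = 0.960) and 2.59 at 12 h (SE 0.140, adjusted p = 5.47e-05), a 6.03-fold rise. Between the times it was 2.58 (SE 0.139, adjusted p = 0.000167).

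Igfbp7 encodes a secreted protein of low affinity for IGFs that is also found in basement membrane and vessels (chr5:77778265-77837070, minus strand, Entrez 29817). It had 413 and 272 CPM with vehicle, 540.3 and 461 at 2 h, and 1652 and 1569 at 12 h. The groups did not overlap. The log2FC at 2 h was 0.55 (SE 0.201, adjusted p = 0.126), and it was called with the replicate block (0.0111) and without vehicle 1 (log2FC 0.88, 0.0397), with a range of 0.0111 to 0.370 over 14 alternatives. At 12 h it was 2.23 (SE 0.209, adjusted p = 0.000339), a 4.70-fold rise, and the step from 2 h to 12 h was 1.69 (SE 0.205, adjusted p = 0.00170). Igfbp7 had more reads than the 1213 bases of its annotated exons in every library, with 3.53 reads per base in vehicle 2, the lowest, and 31.3 in TGFβ 12 h 1, the highest. Its counts therefore cannot hold only 1 read per start position and strand.

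Igfbp5 (chr1:72904506-72921458, minus strand, Entrez 16011) fell to a few reads. It had 56 and 45 counts with vehicle, 25 and 10 at 2 h, and 3 and 1 at 12 h, which is 3.29 and 2.86 CPM, 1.26 and 0.504 CPM, and 0.131 and 0.0513 CPM. Each group lay below the one before it. The log2FC at 2 h was -1.79 (SE 0.461, adjusted p = 0.0458), and this call was lost without TGFβ 2 h 2 (log2FC -1.28, adjusted p = 0.101), TGFβ 12 h 1 (0.0978) or TGFβ 12 h 2 (0.0980), with DESeq2 (0.0610) and in a fit of only these 2 groups (0.0941). Without vehicle 1 or vehicle 2, Igfbp5 no longer passed the filter and was not tested in any comparison. At 12 h the adjusted p was 0.00123. Scaled to library size, the vehicle libraries together had 32.8 times the reads of the 12 h libraries, with a 95% counting interval of 12.4 to 123. The 2 h libraries had 9.38 times those of the 12 h libraries (3.35 to 36.3). The adjusted p of that step was 0.0163, and 0.0770 without TGFβ 12 h 1 or 0.107 without TGFβ 12 h 2.

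Igfbp6, a binding protein with a preference for IGF2 (chr15:101974793-101979942, plus strand, Entrez 16012), had 41 and 38 counts with vehicle, 38 and 48 at 2 h, and 9 and 11 at 12 h. In CPM these were 2.41 and 2.42, 1.92 and 2.42, and 0.392 and 0.564. Only the 12 h libraries stood apart. Igfbp6 passed the filter through both vehicle libraries and TGFβ 2 h 2 alone, where it is high, and it did not pass it in a fit of only the 2 TGFβ groups. The log2FC was -0.15 at 2 h (SE 0.296, adjusted p = 0.771), -2.33 at 12 h (SE 0.348, adjusted p = 0.00227) and -2.18 from 2 h to 12 h (SE 0.346, adjusted p = 0.00433), a 5.04-fold lower level at 12 h than with vehicle.

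Igfbp4, the substrate of the protease Pappa (chr11:98902558-98913969, plus strand, Entrez 16010), had 11.6 and 4.07 CPM with vehicle, 18.8 and 7.16 at 2 h, and 11.5 and 6.21 at 12 h. Replicate 1 was higher than replicate 2 in every group, and all groups overlapped. Within each replicate number, the 2 h library was above the vehicle library. The log2FC was 0.72 at 2 h (SE 0.621, adjusted p = 0.487) and 0.17 at 12 h (SE 0.624, adjusted p = 0.846). With the replicate block, the value at 2 h was 0.73 (adjusted p = 0.0196), and the adjusted p ranged from 0.0196 to 0.903 over 14 alternatives. From 2 h to 12 h it was -0.54 (adjusted p = 0.525, and 0.0588 with the block).

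Igfbp2 (chr1:72871077-72899048, plus strand, Entrez 16008), which lies next to Igfbp5 with the starts 50.4 kb apart, had 1 and 1 counts with vehicle, 3 and 4 at 2 h, and 1 and 1 at 12 h. These levels are at the limit of detection, so no fold is given. Igfbp1, the neighbor of Igfbp3 whose start lies 16.1 kb away, had 0 counts in every library, as had Igfbpl1.

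**Figure D3:**
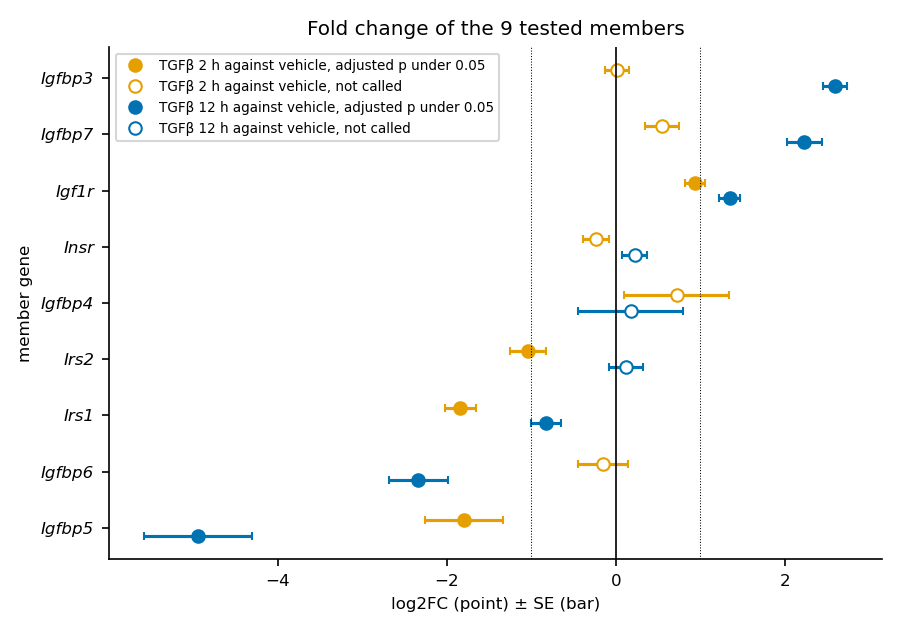
Log2FC against vehicle (x axis, points) with SE (bars) of the 9 tested members at 2 h (orange) and 12 h (blue). Filled points have an adjusted p under 0.05 and dotted lines mark a log2FC of 1 in either direction. Igfbp3 and Igfbp7 lie at 2.59 and 2.23 at 12 h, and Irs1 and Irs2 lie further to the left at 2 h than at 12 h.

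Levels of different genes were compared as RPKM, per kilobase of exon in the GENCODE annotation of the same build, which can differ from the annotation the counts were made on. With vehicle, Igfbp7 had 283 ± 82.2 RPKM (SD, n = 2), followed by Igf1r with 23.1 ± 2.53 and Irs1 with 11.1 ± 0.0372. Irs2 (8.53 ± 0.414) and Insr (7.67 ± 1.28) overlapped, as did Igfbp4 (3.33 ± 2.27) and Igfbp6 (2.17 ± 0.00484), with Igfbp3 (5.59 ± 0.682) between these pairs. Igfbp5 had 0.513 ± 0.0505 RPKM and Igfbp2 0.0332 ± 0.00185. At 2 h the order below Igf1r was Insr, Igfbp3, Igfbp4, Irs2 and Irs1, and each overlapped the next. At 12 h Igfbp3 followed Igf1r with 33.7 ± 0.772 RPKM, ahead of Irs2 (9.30 ± 0.896) and Insr (8.94 ± 0.324), which overlapped. Igfbp7 made up 95.9% to 97.3% of the summed RPKM of the 6 binding proteins in all libraries. That sum was 234 to 355 RPKM with vehicle, 391 to 462 at 2 h and 1330.2 to 1402 at 12 h. Igfbp3 made up 1.71% and 2.18% of it with vehicle, 1.32% and 1.33% at 2 h, and 2.45% and 2.50% at 12 h.

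**Figure D4:**
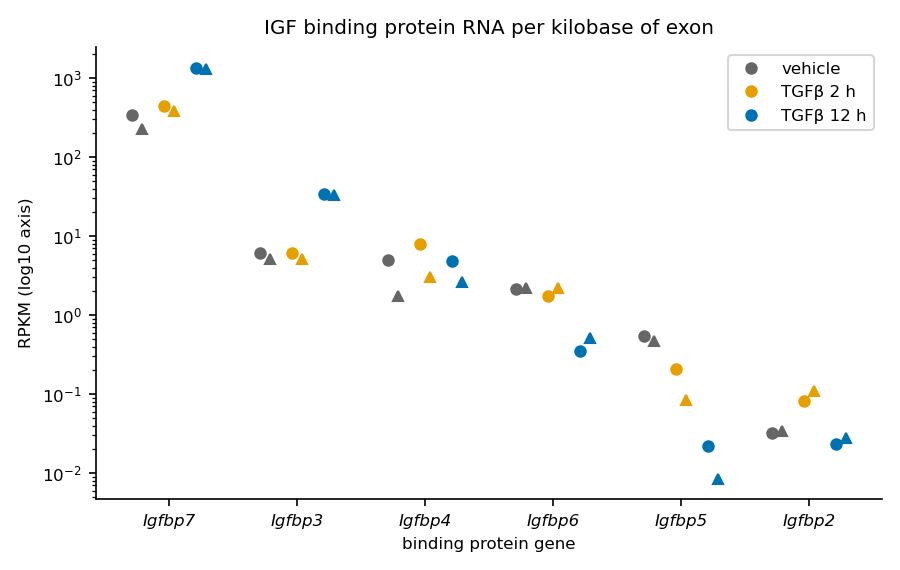
RPKM (y axis, log10 scale) of the 6 IGF binding protein genes in each library, with vehicle in gray, TGFβ 2 h in orange and TGFβ 12 h in blue. Circles are replicate 1 and triangles replicate 2. Igfbp7 is the highest in all 6 libraries, and Igfbp3 and Igfbp5 move in opposite directions at 12 h.

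The genes beside the called members in order of start site on mm9 were looked up. Next to Igfbp6, Spryd3 (start 8.1 kb away) rose at 12 h (log2FC 0.62, adjusted p = 0.00283) and Soat2 (6.2 kb away) fell (log2FC -1.48, adjusted p = 0.00284). Next to Igfbp7, Polr2b, an RNA polymerase subunit gene on the other strand whose annotated end overlaps that of Igfbp7, had a log2FC of 0.00 at 2 h and -0.09 at 12 h (adjusted p = 0.985 and 0.455). Col4a2, a collagen chain gene whose start lies 304 kb from that of Irs2, had 0.49 at 2 h (adjusted p = 0.0938, and 0.00521 with the block, in a range of 0.00521 to 0.390 over 14 alternatives) and rose by 1.03 at 12 h (adjusted p = 0.00273). Tns3, whose start lies 1451 kb from that of Igfbp3, rose by 0.49 at 12 h (adjusted p = 0.00902). Its log2FC at 2 h was 0.38 (adjusted p = 0.0535, 0.0132 with the block, 0.00959 to 0.284). Rhbdd1 next to Irs1 had -0.22 and 0.16, with no call at either time. Synm next to Igf1r had -0.79 at 2 h (adjusted p = 0.116, 0.0462 with the block, 0.0462 to 0.360) and -0.80 at 12 h (0.0585, 0.0249 with the block, 0.0249 to 0.248). The latter was also called without TGFβ 2 h 1 (0.0348) or TGFβ 2 h 2 (0.0374), on total counts (0.0330), with at least 10 counts in every library (0.0447) and in a fit of only these 2 groups (0.0324). The other neighbors (Tnp1, Pea15b, Nyap2, 3930402G23Rik and Pgpep1l) were not tested, as they did not pass the filter.

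The genes whose log2 CPM followed Igfbp3 most closely over the 6 libraries were Urb2 (Pearson's r = 0.9988), Col11a1 (0.9985) and Wdr82 (0.9979), of 45 genes with r above 0.99. The measure does not see the size of a change, as Wdr82 had a log2FC of 0.07 at 12 h and Col11a1 one of 4.81. Those closest to Igfbp5 were Kitl (0.9984), 9030025P20Rik (0.9977) and Pradc1 (0.9974), of 28 genes above 0.99. Before the log2 was taken, 0.25 CPM was added to each value. Igfbp5 had 0.131 and 0.0513 CPM at 12 h, less than this addition, which largely sets its values there. With 3 groups of 2, such values describe the group pattern and carry no test.

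The rest of the pathway was taken from a list of 52 genes by role, of which 40 were tested. At 2 h, 5 rose and 3 fell, at 12 h 8 rose and 9 fell, and from 2 h to 12 h 3 rose and 11 fell. Of all tested genes, 9.91% rose and 5.25% fell at 2 h, 21.8% and 21.5% did at 12 h, and 15.2% and 18.9% did between the times. With the replicate block the calls were 12 at 2 h, 24 at 12 h and 18 between the times, where 29.1%, 55.3% and 48.5% of all genes were called. The median log2FC was 0.03 at 2 h and 0.07 at 12 h, against -0.01 and 0.02 over all genes tested. These counts were 2 at 2 h without either vehicle library, 3 without either 12 h library, 11 at 12 h without vehicle 1, 10 at 12 h without TGFβ 12 h 2, and 5 from 2 h to 12 h without either 12 h library.

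Among proteases of the binding proteins and their inhibitors, Adam12, which passed the filter through the 12 h libraries alone and is a metalloprotease that cuts Igfbp3 and Igfbp5, had 0.765 and 1.21 CPM with vehicle, 0.556 and 1.76 at 2 h, and 33.8 and 43.2 at 12 h. It rose at 12 h by a log2FC of 5.28 (SE 0.470, adjusted p = 0.000284) and was not called at 2 h (0.24, adjusted p = 0.805). Without TGFβ 12 h 1 or TGFβ 12 h 2 it did not pass the filter and was not tested. Stc1, which passed it through the vehicle libraries alone and belongs to the stanniocalcins, a family that inhibits Pappa, had 71 and 66 counts with vehicle, 14 and 5 at 2 h, and 0 and 1 at 12 h. Its log2FC at 2 h was -3.11 (SE 0.498, adjusted p = 0.00908), and, scaled to library size, the vehicle libraries together had 178 times the reads of the 12 h libraries (95% counting interval 31.4 to 7073, adjusted p = 0.000601). Without vehicle 1 or vehicle 2 it did not pass the filter. Pappa and Pappa2 were near 0 and not tested, and Stc2 was called at neither time against vehicle. Htra1, a secreted protease, had a log2FC of 0.46 at 2 h (adjusted p = 0.149, and 0.0301 with the block, in a range of 0.0301 to 0.396 over 14 alternatives). At 12 h it had -0.38 (adjusted p = 0.139, 0.0313 with the block, 0.0313 to 0.496), and it was also called without TGFβ 12 h 2 (log2FC -0.68, 0.0349). From 2 h to 12 h Htra1 fell by 0.85 on the log2 scale (SE 0.183, adjusted p = 0.0135), and this call was lost without TGFβ 12 h 1 (0.0616).

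Of the inhibitors of the receptors and their signal, Trib3, a pseudokinase that binds AKT, had 8.65 and 10.4 CPM with vehicle, 28.4 and 26.7 at 2 h, and 31.5 and 24.6 at 12 h. It rose by 1.53 at 2 h (SE 0.178, adjusted p = 0.00286) and 1.56 at 12 h (SE 0.178, adjusted p = 0.000745). Grb14, an adaptor that inhibits the insulin receptor kinase, fell by 1.73 on the log2 scale at 12 h (SE 0.235, adjusted p = 0.00154), from 13.1 and 14.5 CPM to 4.70 and 3.59 CPM. At 2 h it had 11.2 and 8.17 CPM (adjusted p = 0.185).

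Of 11 PI3K and AKT genes, 3 rose and none fell at 2 h, and 3 rose and 3 fell at 12 h, against 9.91% and 5.25% of all genes at 2 h and 21.8% and 21.5% at 12 h. With the block, 4 of these genes rose at 2 h, where 29.1% of all genes were called. At 12 h, 5 rose and 3 fell with the block, where 55.3% of all genes were called. None was called at 2 h without either vehicle library, without either 12 h library or in a fit of only these 2 groups. The 12 h count was 2, Pik3cb and Pik3r3, without TGFβ 12 h 2. Pik3r3, a regulatory subunit of PI3K, had 99.5 and 105 CPM with vehicle, 148 and 137 at 2 h, and 29.4 and 27.3 at 12 h. Its log2FC was 0.48 at 2 h (SE 0.100, adjusted p = 0.0233) and -1.85 at 12 h (SE 0.105, adjusted p = 6.19e-05). The 2 h call was lost in 6 of 14 alternatives, among them without vehicle 1 (0.156), vehicle 2 (0.103), TGFβ 2 h 1 (0.0536), TGFβ 12 h 1 (0.0685) or TGFβ 12 h 2 (0.0682). Pik3cb, a catalytic subunit, rose by 0.87 at 12 h (SE 0.144, adjusted p = 0.00354) and had -0.14 at 2 h (adjusted p = 0.569).

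Of 10 genes of the mTOR arm, 1 rose and 1 fell at 2 h (9.91% and 5.25% of all genes), and 2 rose and 2 fell at 12 h (21.8% and 21.5%). With the block, 4 rose and 3 fell at 12 h, where 55.3% of all genes were called. Tsc1, an inhibitor of mTORC1 that fell at 2 h, was not called there without either vehicle or either 12 h library, which left Ddit4 alone. The 12 h call of Rptor, a subunit of mTORC1, was lost in 9 of 14 alternatives, among them limma-voom and the fits without either vehicle or either 12 h library. The 12 h count was 6 without either 2 h library. Ddit4, an inhibitor of mTORC1 induced by stress, had 62.1 and 94.8 CPM with vehicle, 320.0 and 327 at 2 h, and 275 and 232 at 12 h. It rose by 2.04 at 2 h (SE 0.208, adjusted p = 0.00179) and 1.69 at 12 h (SE 0.206, adjusted p = 0.000972). Deptor, an inhibitor within the mTOR complexes, had 79.0 and 87.2 CPM with vehicle, 70.0 and 65.9 at 2 h, and 19.8 and 20.8 at 12 h. It fell by 2.04 on the log2 scale at 12 h (SE 0.110, adjusted p = 5.47e-05), and its log2FC at 2 h was -0.29 (adjusted p = 0.118). None of the 5 FoxO and GSK3 genes was called at either time by edgeR, with or without the block, and their log2FC lay between -0.11 and 0.14.

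**Figure D5:**
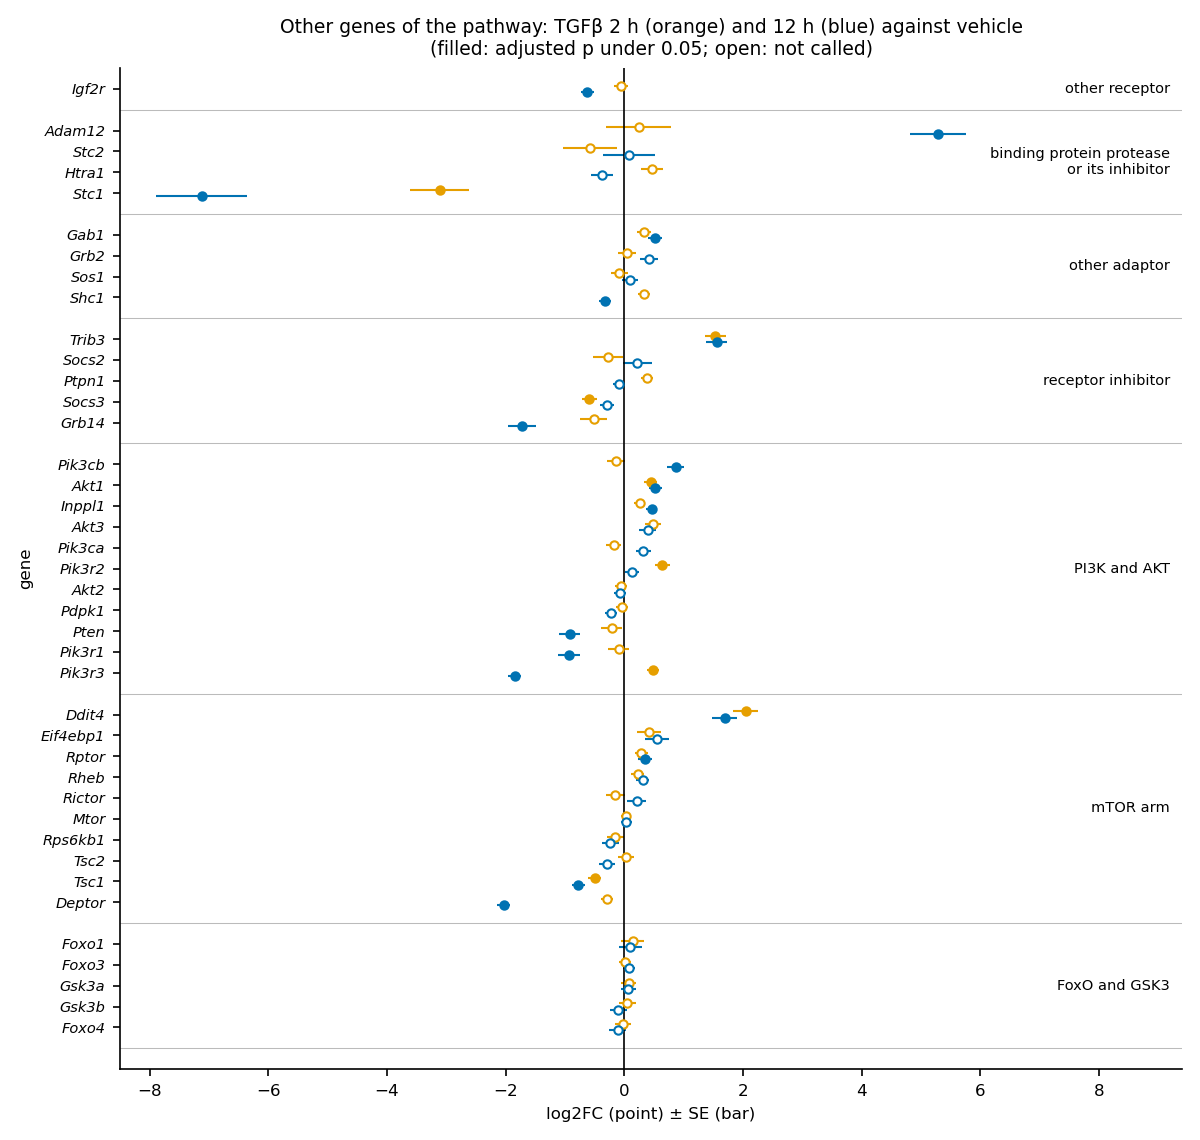
Log2FC against vehicle (x axis, points) with SE (bars) of the 40 tested genes of the pathway list at 2 h (orange) and 12 h (blue), grouped by role. Filled points have an adjusted p under 0.05. Adam12 (5.28) and Stc1 lie at the ends at 12 h, while the FoxO and GSK3 genes lie within -0.11 to 0.14.

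Insulin signaling keeps FoxO factors out of the nucleus, so 12 genes widely used as FoxO targets were read in the same fit, of which 10 were tested. At 2 h 1 rose and 2 fell, against 9.91% and 5.25% of all genes, and with the block 3 rose and 2 fell, where 29.1% of all genes were called. At 12 h 4 rose and 3 fell, against 21.8% and 21.5%. The median log2FC was 0.16 at 2 h and -0.16 at 12 h. The 12 h count was 4 without vehicle 2, 3 without TGFβ 12 h 1 and 2 without TGFβ 12 h 2. Fbxo32, an E3 ligase subunit of muscle atrophy, had 23.5 and 20.5 CPM with vehicle, 53.9 and 52.0 at 2 h, and 138 and 127 at 12 h. It rose by 1.27 at 2 h (SE 0.114, adjusted p = 0.00120) and 2.59 at 12 h (SE 0.117, adjusted p = 3.77e-05). Cited2, a transcriptional coregulator, rose by 1.41 at 12 h (SE 0.266, adjusted p = 0.00581) from 59.0 and 45.5 CPM to 167 and 111 CPM. At 2 h it had 0.54 (adjusted p = 0.233, 0.00413 with the block, 0.00413 to 0.586 over 14 alternatives). Sesn3, a sestrin that restrains mTORC1, fell by 0.90 on the log2 scale at 12 h (SE 0.168, adjusted p = 0.00556, and 0.0537 without TGFβ 12 h 2).

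Bcl2l11, which encodes the death factor BIM, had 26.5 and 18.8 CPM with vehicle, 54.4 and 35.6 at 2 h, and 48.6 and 35.8 at 12 h. Its log2FC at 2 h was 0.99 (adjusted p = 0.0564), and it was called there with the block (0.000224), DESeq2, no filter and without TGFβ 2 h 2 (log2FC 1.26, 0.0148), in a range of 0.000224 to 0.221 over 14 alternatives. It rose by 0.90 at 12 h (SE 0.271, adjusted p = 0.0358), a call lost without vehicle 2 (0.164), TGFβ 12 h 1 (0.220) or TGFβ 12 h 2 (0.0689). Txnip, an arrestin-like inhibitor of glucose uptake named after its values were seen, was lower at 2 h and not called at 12 h, as was Irs2. It had 81.8 and 101 CPM with vehicle, 20.7 and 27.4 at 2 h, and 93.6 and 62.5 at 12 h, a log2FC of -1.93 at 2 h (SE 0.240, adjusted p = 0.00359) and -0.23 at 12 h (adjusted p = 0.460).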

How the data were processed

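Stranded total RNA-seq was made from 6 libraries in 3 groups of 2 biological replicates. The deposited values are raw counts of reads per gene, with no normalization. Before deposit, the authors aligned filtered reads to mm9 with subjunc, kept unique alignments, removed duplicates with SAMtools 0.1.19 and counted exon reads with featureCounts in its reverse-stranded setting. How duplicates were defined is not given in the sources used here.

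Testing used edgeR 4.0.16 in R 4.3.3 (quasi-likelihood test, TMM, 1 fit of 3 groups, two-sided, Benjamini-Hochberg adjustment within each contrast). Genes needed 2 CPM in 2 libraries. limma 3.58.1 (voom) and DESeq2 1.42.0 were alternatives, beside other scalings and filters, a replicate block, fits of 2 groups and each library left out. The study's methods used voom. SE is the absolute log2FC divided by the square root of F. Counting intervals are 95% and cover counting error only. Same-numbered libraries deviated from their group means together (correlation across genes 0.708 for vehicle and 2 h, 0.263 for vehicle and 12 h, 0.392 for 2 h and 12 h), and all were above 0.1, so the numbers were read as pairing the libraries. The main fit has no replicate term, so its calls, SE and adjusted p do not use this pairing. Only the values given with the block do. The labels call them biological replicates and name no shared day.

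Members and lists were chosen with earlier results of these data known. The text names all members, pathway genes called with an absolute log2FC above 1 in any contrast, the ligands and other receptors, the 4 called FoxO targets with the largest change at 12 h, the neighbors of called members, the 3 genes most like Igfbp3 and Igfbp5, and 2 TGFβ targets, with 1 further gene of the rule not reported here. Htra1, Tsc1, Rptor and Txnip were named after their values had been seen. Positions and exon lengths came from GENCODE on NCBIM37, the build of mm9. Of the genes counted, 18958 were matched by symbol, 1675 by synonym and 607 not at all. Depth was 14705886 to 23786993 counts, at which 3 counts are 0.131 to 0.191 CPM.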

Additional observations from a re-analysis of the deposited data

Results flagged for a closer look

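The log2FC at 12 h differed from that at 2 h, by the test of 12 h against 2 h in the same edgeR fit with Benjamini-Hochberg adjustment, for 7 members. Of all tested genes, 15.2% were called higher and 18.9% lower in this test. The difference was 2.58 for Igfbp3 (adjusted p = 0.000167), -3.15 for Igfbp5 (0.0163), -2.18 for Igfbp6 (0.00433), 1.69 for Igfbp7 (0.00170), 1.01 for Irs1 (0.00695), 1.16 for Irs2 (0.00684) and 0.41 for Igf1r (0.0388). That of Igfbp5 rests on 3 and 1 counts at 12 h, so its size is poorly known. Igfbp5 passed the filter through its vehicle libraries alone, and Igfbp6 through both vehicle libraries and TGFβ 2 h 2 alone. In Irs1 and Irs2 the difference is opposite in sign to the change at 2 h, while in Igfbp5 and Igf1r, also called at 2 h, it has the same sign. The difference and the change at 2 h share the TGFβ 2 h libraries, which enter them with opposite sign. Error in those libraries alone therefore pushes the values in opposite directions. The calls of Irs2 and Igfbp5 at 2 h were lost in some alternatives, as given above. Leaving out 1 library ended the call of Igf1r (any library, adjusted p 0.0508 to 0.224), Igfbp5 (TGFβ 12 h 1, 0.0770, or TGFβ 12 h 2, 0.107, and vehicle 1 or vehicle 2, without which it did not pass the filter), Irs1 (TGFβ 12 h 1, 0.0688) and Irs2 (TGFβ 12 h 2, 0.0586). The changes against vehicle at both times share the vehicle libraries, which drop out of the difference. The 12 h cells were also longer without insulin and serum, so time and withdrawal cannot be told apart.

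Adam12 passed the filter through the 12 h libraries alone and Stc1 through the vehicle libraries alone. Stc1 had 0 and 1 counts at 12 h, so the size of its difference is poorly known. Scaled to library size, the 2 h libraries had 20.4 times its reads at 12 h (95% counting interval 3.24 to 846). Among the named genes of the pathway list the difference was 5.04 for Adam12 (adjusted p = 0.000625), -4.01 for Stc1 (0.0237), -2.33 for Pik3r3 (0.000105), -1.75 for Deptor (0.000241), -1.22 for Grb14 (0.00883), 1.01 for Pik3cb (0.00305), -0.85 for Htra1 (0.0135) and -0.56 for Igf2r (0.0105). Of these, Pik3r3 was called in opposite directions against vehicle at the 2 times, and Htra1 was called at neither. The call of Pik3r3 at 2 h was lost in 6 of 14 alternatives. Among FoxO targets it was 1.70 for Txnip (0.00279), 1.32 for Fbxo32 (0.000515), 0.88 for Cited2 (0.0418) and -0.85 for Sesn3 (0.00990). The call ended for Stc1 without TGFβ 2 h 1 (0.0742), TGFβ 12 h 1 (0.137) or TGFβ 12 h 2 (0.0669), and it was not tested without vehicle 1 or vehicle 2, nor was Adam12 without TGFβ 12 h 1 or TGFβ 12 h 2, since they did not pass the filter there. The call also ended for Grb14 without TGFβ 12 h 2 (0.0737) and for Htra1 without TGFβ 12 h 1 (0.0616). It ended for Igf2r without TGFβ 12 h 1 (0.0846) or TGFβ 12 h 2 (0.0774), and for Sesn3 without the same libraries (0.0622 and 0.0826). For Cited2 it ended without vehicle 1 (0.0503), TGFβ 2 h 2 (0.103), TGFβ 12 h 1 (0.256) or TGFβ 12 h 2 (0.0578).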

How the results depend on the processing

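Of 364 recomputed values of the 9 tested members (3 contrasts, up to 14 alternatives), 325 kept direction and side of the threshold. Leaving out 1 library gave 2 to 4 members called at 2 h (4 in the full fit), 5 to 6 at 12 h (6), 4 to 7 between the times (7), and 1 to 2 and 4 to 5 with an absolute log2FC above 1 (3 and 5). It gave 2 to 8 pathway genes at 2 h (8), 10 to 22 at 12 h (17) and 5 to 15 between the times (14), and 2 to 3 FoxO targets at 2 h (3) and 2 to 8 at 12 h (7). With only the 2 groups compared, 2 members (1 with an absolute log2FC above 1) and 3 pathway genes were called at 2 h. These fits have fewer libraries. With at least 10 counts in every library, which removes Igfbp5 and Igfbp6, 3 members were called at 12 h with an absolute log2FC above 1. The same alternatives were run for Htra1, Synm, and Col4a2, Tns3, Bcl2l11 and Cited2 at 2 h after their values had been seen. The replicate block called 5 FoxO targets at 2 h, and among members it changed the calls of Igfbp4 and Igfbp7 at 2 h and Insr between the times and no other. Among the values recomputed, signs turned only in those without a call. These were Igfbp3 at 2 h on total counts (-0.10) and without 1 library (-0.13 to 0.14), Irs2 at 12 h on total counts (-0.0059), and Igfbp4 without 1 library (-0.16 to 1.67 at 2 h, -0.39 to 1.12 at 12 h, -1.08 to 0.32 between the times). Total counts shifted the median gene by -0.11 at 2 h and -0.13 at 12 h. The cause was not tested. Depth limits Igfbp2, the ligands and the size of the fall of Igfbp5 and Stc1.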
